A study of Mus musculus with 12 samples.

Results

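The miR-148 and miR-152 family is a set of small regulatory RNAs cut from the hairpins miR-148a, miR-148b and miR-152. Its members here were all listed arms of these 3 hairpins, found by name in a table of mature miRNAs from mouse liver. There were 6 of them among the 386 listed miRNA rows, the 5p and the 3p arm of each hairpin. The livers came from 12 male wild-type C57BL/6 mice at postnatal day 84, or 12 weeks of age, after fasting. Their mothers had eaten a control chow (7% simple carbohydrates, 3% lipids) or an obesogenic diet (10% simple carbohydrates, 20% lipids) with sweetened condensed milk, through pregnancy until weaning. On day 21 the sons went onto 1 of the same diets, which gave 4 groups of 3 libraries. In CC, mother and son ate the control diet. In CO, the mother ate control chow and the son the obesogenic diet. In OC, the mother ate the obesogenic diet and the son control chow, and in OO both ate the obesogenic diet. The labels name no mother or litter for any son, so p-values reflect only how far these libraries differ among themselves. The beginnings of the sample titles split fully with maternal diet, and what they stand for cannot be told apart from that diet. OC replicate 2 and OO replicate 3 have titles with a common number, as no other pair has, and whether these sons have a common origin is not stated. The tissue was whole liver, in which fewer cells of a type and less RNA per cell cannot be told apart.

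A miRNA is loaded into an Argonaute protein and directs it to messenger RNAs that pair with its seed, bases 2 to 8 from its 5′ end, which lowers their translation and stability. The hairpin is cut into a duplex of a 5p and a 3p strand, of which usually only the major arm is kept. In liver, miR-148a is among the most abundant miRNAs. It is known to target the cholesterol exporter Abca1 and to be activated by the lipogenic factor SREBP1c. Members of the family are also known to target the maintenance DNA methyltransferase Dnmt1.

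The mature sequences are shown because they set which members share targets. They were taken from RefSeq on GRCm38.p6, in which all 6 members were found by name, as were 320 of the 386 rows. Capitals mark the seed.
miR-148a-3p: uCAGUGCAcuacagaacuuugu
miR-148b-3p: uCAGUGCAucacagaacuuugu
miR-152-3p: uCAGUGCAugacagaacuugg
miR-148a-5p: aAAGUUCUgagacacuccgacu
miR-148b-5p: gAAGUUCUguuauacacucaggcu
miR-152-5p: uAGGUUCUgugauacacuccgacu

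The 3p arms share the seed CAGUGCA, and among the 1679 mature miRNAs of the RefSeq table these 3 were the only ones to carry it. The seed AAGUUCU was shared by miR-148a-5p and miR-148b-5p and by no other miRNA of that table, while AGGUUCU belonged to miR-152-5p alone. Outside the seed the 3p arms were close. Counted from the 5′ end, miR-148b-3p differs from miR-148a-3p by C9U and U10C, with 20 of 22 bases the same. miR-152-3p differs from miR-148a-3p by C9U, U10G and U20G, with 18 of 21 compared bases the same, and from miR-148b-3p by C10G and U20G. Among the 5p arms, miR-148b-5p and miR-152-5p, of 24 bases each, have 19 in common. miR-148a-5p is shorter, at 22 bases. Position by position from the 5′ end, without gaps, it matches miR-148b-5p at 13 of 22 bases and miR-152-5p at 12. Such a count understates likeness where lengths differ. miR-148a-5p and miR-152-5p end in the same run of bases, which it sets out of register. How the authors assigned reads that match more than 1 miRNA was not stated in any label or header used here.

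The hairpins are shown because the results on arm use turn on them. They come from the same RefSeq table, and capitals mark the 5p arm, which comes first, and the 3p arm.
miR-148a hairpin: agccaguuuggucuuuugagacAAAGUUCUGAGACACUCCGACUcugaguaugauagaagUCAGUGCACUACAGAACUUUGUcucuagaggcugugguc
miR-148b hairpin: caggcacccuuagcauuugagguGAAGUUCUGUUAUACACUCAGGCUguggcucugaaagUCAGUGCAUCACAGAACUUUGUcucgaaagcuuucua
miR-152 hairpin: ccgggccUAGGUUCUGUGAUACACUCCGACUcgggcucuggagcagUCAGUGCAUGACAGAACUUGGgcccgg

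The genes lie on different chromosomes. In GENCODE vM21 on GRCm38, Mir148a (ENSMUSG00000065505.1) is at chromosome 6, 51269812 to 51269910, minus strand, outside other annotated genes, with Nfe2l3 as the nearest protein-coding gene at 162760 bases. Mir148b (ENSMUSG00000065560.1) is at chromosome 15, 103285125 to 103285221, plus strand, in an intron of Copz1 on the same strand. Mir152 (ENSMUSG00000065515.1) is at chromosome 11, 96850393 to 96850465, plus strand, in an intron of Copz2 on the same strand. Copz1 and Copz2 encode paralogous zeta subunits of the coatomer, the coat of vesicles between Golgi and endoplasmic reticulum. The authors' own build is not given in the sources used here.

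Values are CPM, the reads of a miRNA scaled to a fixed total per library. The listed values of a library summed to between 1008660 CPM (OC replicate 1) and 1011740 CPM (OC replicate 2). These sums exceed the total that CPM implies, and the sources used here do not say why. The scaling corresponded to between 5.45 and 22.2 M reads (mega-reads) per library, with a median of 13.2. CO replicate 3 was the shallowest library and stood apart. Its median deviation over all rows was -0.20 on the log2 scale, against a range of -0.04 to 0.13 in the other 11 libraries. It had the highest summed level of 4 hepatocyte markers, miR-122 and miR-192 among them, at 329571 CPM, and the lowest sum of the 2 endothelial miR-126 arms, at 15584 CPM. The hepatocyte sum was mostly miR-192-5p. Over all libraries that miRNA averaged 246349 CPM and miR-122-5p 23414, where the sum averaged 278470. The hepatocyte sum ranged from 265217 to 273262 CPM in CC, 270932 to 329571 in CO, 257060 to 277964 in OC and 276695 to 282726 in OO. The endothelial sum ranged from 24304 to 27100 CPM in CC, 15584 to 22984 in CO, 23722 to 24653 in OC and 24420.2 to 28052 in OO. CO replicate 3 also had the lowest leukocyte marker sum, at 1752 CPM against 2510.4 to 4093 in the others. Its stellate cell sum of 46178 CPM was exceeded only by CC replicate 1, at 48309. CO replicate 1 had the highest erythroid sum, at 8999 CPM, with at most 5242 in the others. The biliary marker sum ranged from 396 to 892 CPM over all libraries. As no row of the whole table held a 0, being listed in every library says nothing about the markers. The part of cell makeup in the results below was not tested.

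miR-148a-3p, the arm known from lipid metabolism, held nearly all of the family's reads. It was the 3rd most abundant miRNA of the table in each of the 12 libraries. It stood at 86807, 85912 and 86181 CPM in the CC libraries and at 89162, 95301 and 77282 in CO. It stood at 79510.1, 87002 and 72093 CPM in OC and at 86521, 81422 and 79175 in OO. The CC libraries lay close together, within the ranges of CO and OC, and all groups overlapped. Group means were, for CC, 86299.8 ± 459.5 CPM, for CO 87248 ± 9161, for OC 79535 ± 7455 and for OO 82372 ± 3764 (SD, n = 3 each). Between 420973 and 1764236 reads stood behind each value, so that counting error was at most 0.154% and the spread between libraries far exceeded it.

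miR-148b-3p and miR-152-3p, which carry the same seed, were much less abundant. miR-148b-3p stood at 1063, 1036 and 1063 CPM in CC, 1017, 1092 and 876 in CO, 951, 1175 and 1118 in OC, and 944, 1019.7 and 1384 in OO. Its lowest library was CO replicate 3 and its highest OO replicate 3. miR-152-3p stood at 202, 180.4 and 205 CPM in CC, 163, 228 and 159 in CO, 227, 188 and 198 in OC, and 183, 196 and 263 in OO. The same libraries were its lowest and its highest, and for both miRNAs all groups overlapped.

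Among the 5p arms, miR-148a-5p was the most abundant and was set apart by CO replicate 3. It stood at 482, 526 and 510.3 CPM in CC, 503, 558 and 1066 in CO, 509.6, 589.6 and 514 in OC, and 516, 429 and 493 in OO. The value of 1066 CPM rested on 5807 reads, with an exact 95% Poisson interval of 1039 to 1094 CPM that covers counting error only. Over all 12 libraries its highest value was 2.48 times its lowest, and without CO replicate 3 it was 1.37 times.

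The other 5p arms were the least abundant members. miR-148b-5p stood at 31.5, 31.1 and 35.6 CPM in CC, 31.2, 39.0 and 44.8 in CO, 26.5, 34.0 and 32.9 in OC, and 27.3, 28.9 and 38.2 in OO. Its highest value was again in CO replicate 3. Its counting error reached 6.57%, at 232 reads in CC replicate 2, the largest of any member. miR-152-5p stood at 58.0, 45.0 and 57.3 CPM in CC, 45.0, 56.0 and 62.0 in CO, 55.7, 55.2 and 57.0 in OC, and 44.7, 45.2 and 71.9 in OO. The high library was OO replicate 3, and all groups overlapped for both arms.

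**Figure D1:**
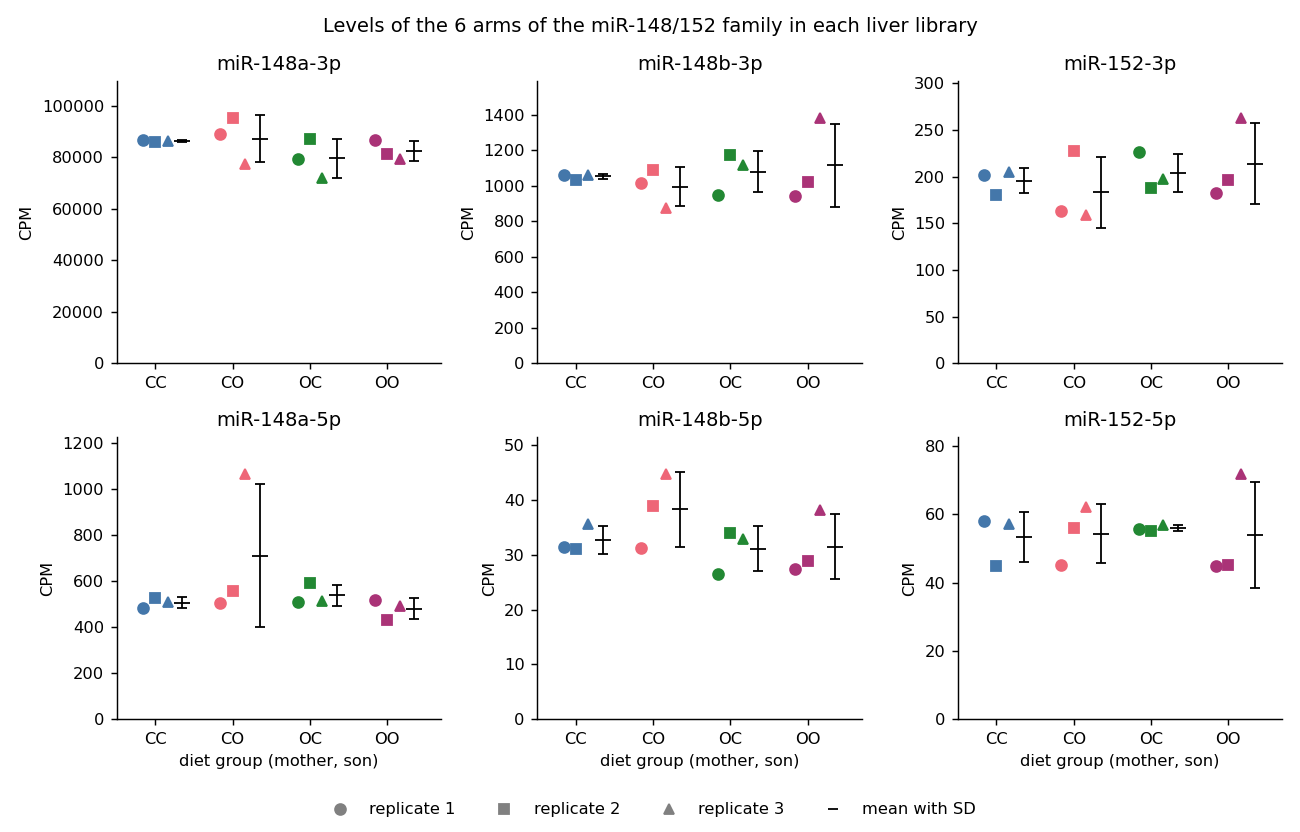
CPM of each arm (vertical axis, linear and starting at 0) in the 12 libraries by diet group, with markers for replicates and the mean with SD beside them. The groups overlap for every arm, and CO replicate 3 stands above all other libraries for miR-148a-5p, at 1066 CPM.

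The order of the members was nearly fixed. In 11 of 12 libraries it ran from miR-148a-3p through miR-148b-3p, miR-148a-5p, miR-152-3p and miR-152-5p to miR-148b-5p. In CO replicate 3, miR-148a-5p lay above miR-148b-3p. miR-148a-3p exceeded miR-148b-3p between 57.2 and 91.6 times. miR-148b-3p stood at 0.822 to 2.81 times the level of miR-148a-5p, and miR-148a-5p at 1.87 to 6.71 times that of miR-152-3p. miR-152-3p exceeded miR-152-5p between 2.56 and 4.34 times, and miR-152-5p exceeded miR-148b-5p between 1.39 and 2.10 times. The ranges over libraries overlapped for 2 of these neighbouring pairs, miR-148b-3p with miR-148a-5p and miR-152-5p with miR-148b-5p. Mature miRNAs are of nearly the same length, so CPM was not scaled for length. Ligation and amplification can favour some sequences, and the amounts of miRNA in the tissue were not measured.

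In the pool of reads with the seed CAGUGCA, miR-148a-3p held 98.5 ± 0.219%, miR-148b-3p 1.25 ± 0.187% and miR-152-3p 0.235 ± 0.0399% (SD, n = 12). The share of miR-148a-3p was never below 97.96%. The pool summed to a mean, for CC, of 87549 ± 480.03 CPM, for CO of 88427 ± 9301, for OC of 80820.4 ± 7479 and for OO of 83702 ± 3535 (SD, n = 3 each). For the seed AAGUUCU, miR-148a-5p held 94.2 ± 0.854% of the reads (SD, n = 12). The 6 members together took 8.49 ± 0.606% of all listed reads, between 7.33% and 9.62%.

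miR-148a-3p was also one of the steadier miRNAs. Its SD within groups was 0.11 on the log2 scale, and of the 261 rows with a mean of at least 10 CPM only 9.20% had a smaller one. Those rows differ widely in abundance, and rows about as abundant as miR-148a-3p were not compared on their own. The SD was 0.19 for miR-148b-3p, with 36.0% of those rows smaller, and 0.22 for miR-152-3p, with 51.7% smaller. It was 0.21 for miR-148b-5p (47.5%), 0.25 for miR-152-5p (61.7%) and 0.31 for miR-148a-5p (77.0%). Over all 12 libraries the SD of miR-148a-5p was 0.33, and without CO replicate 3 it was 0.12.

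The study's design asks first what the sons' own diet does to liver miRNAs. No member of the family passed the test in that comparison. Its main arm, miR-148a-3p, averaged 84810.4 ± 6809 CPM on the obesogenic and 82917 ± 6004 CPM on the control diet of the sons (SD, n = 6 each), a log2 change of 0.03 with a 95% interval of -0.11 to 0.17. miR-148a-5p had a log2 change of 0.12 (interval -0.23 to 0.47), which was -0.05 without CO replicate 3, and miR-148b-5p 0.11 (-0.17 to 0.38), which was 0.05 without that library. The changes of miR-148b-3p, miR-152-3p and miR-152-5p were -0.03 each at the deposited scaling and 0.02 each with TMM factors, so they had no stable sign. By limma with Benjamini-Hochberg adjustment over all 386 rows, 0 of 6 members passed, with adjusted p between 0.741 and 0.933, where 0.777% of all rows passed. At the deposited scaling, with all 12 libraries and no covariate, 0 members had an unadjusted limma p under 0.05, against 14.8% of all rows. Diet groups overlapped for all 6 members, while they separated for 2.59% of all rows. All 6 intervals lay within a log2 change of 1 in either direction, as those of 93.5% of all rows did. They also lay within 0.5, a bound for which the share of all rows was not counted.

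The next question was what the mother's diet does to the livers of adult sons. Again no member passed. miR-148a-3p averaged 80953.6 ± 5506 CPM in sons of obesogenic and 86774 ± 5824 CPM in sons of control mothers (SD, n = 6 each), a log2 change of -0.10 (SE 0.065, interval -0.24 to 0.04, limma adjusted p = 0.697). Without CO replicate 3 this was -0.14 (limma adjusted p = 0.624, unadjusted p = 0.020). On leaving out each library in turn it lay between -0.14 and -0.07. With TMM factors it was -0.18 (SE 0.070), with median-of-ratios factors -0.17 (SE 0.067) and with log2 depth as a covariate -0.17 (SE 0.073). By limma it passed in none of these, with adjusted p of 0.599, 0.627 and 0.737. The change was 0.09 for miR-148b-3p, 0.14 for miR-152-3p, -0.20 for miR-148a-5p, -0.17 for miR-148b-5p and 0.02 for miR-152-5p. The median of all rows was 0.08 here. For miR-148a-5p the change was -0.03 without CO replicate 3, and for miR-152-5p it was -0.06 with TMM factors. By limma with Benjamini-Hochberg adjustment 0 of 6 members passed, with adjusted p between 0.697 and 0.961, and 0% of all rows did. At the deposited scaling, with all 12 libraries and no covariate, 0 members had an unadjusted limma p under 0.05, against 6.99% of all rows. No such count is given for the other settings. The libraries of the 2 maternal diets overlapped for all 6 members, and separated for 0.777% of all rows. The intervals lay within a log2 change of 1 for all 6 members, against 95.3% of all rows. They lay within 0.5 for 5 of 6, the exception being miR-148a-5p, and the share of all rows at that bound was not counted.

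**Figure D2:**
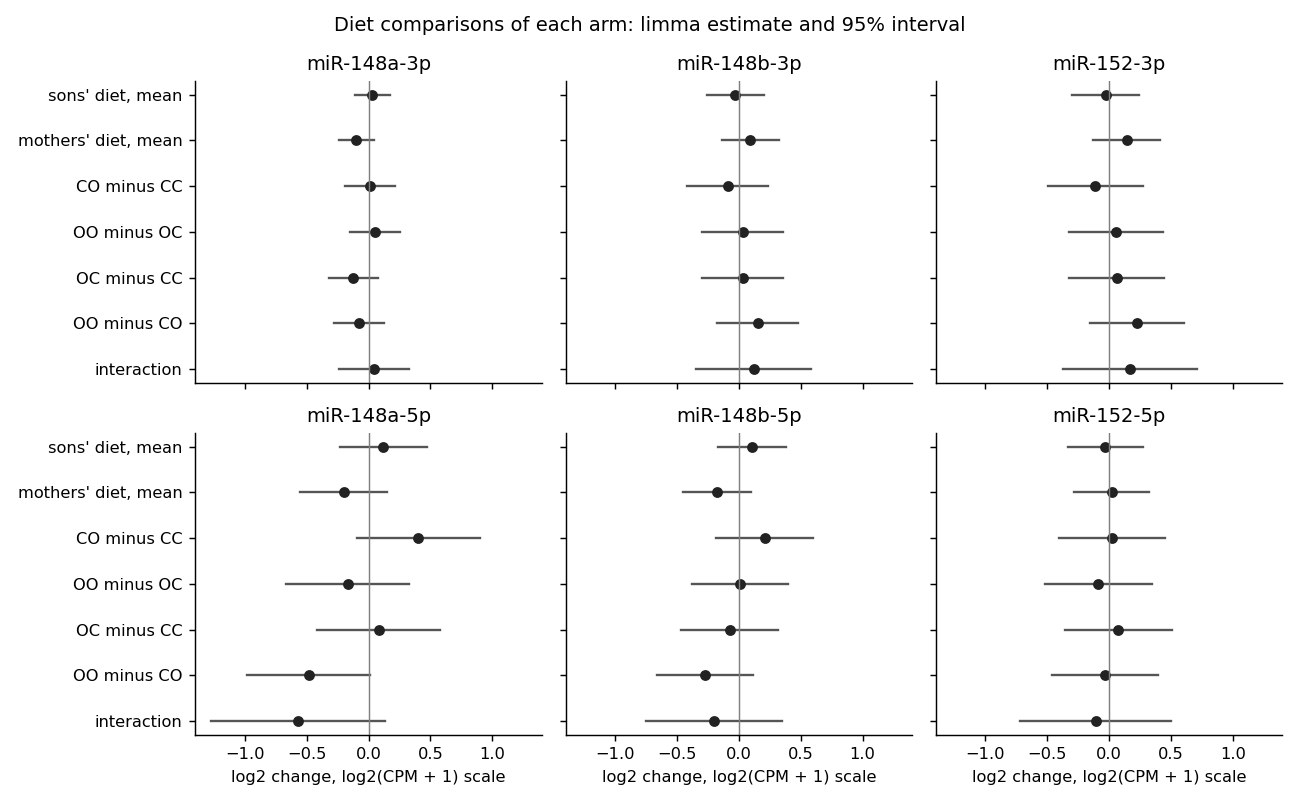
Log2 change of each arm on the log2(CPM + 1) scale (horizontal axis) with its 95% limma interval, for the 7 diet comparisons on the vertical axis. Every interval includes 0, and the widest are those of miR-148a-5p.

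Where CO was compared with CC or with OO, the largest differences of the family belonged to miR-148a-5p, and they rested on CO replicate 3. Between CO and CC, the sons' diet under control mothers, its log2 change was 0.40 (SE 0.227, interval -0.09 to 0.90, limma adjusted p = 0.455). Without CO replicate 3 it was 0.07 (limma adjusted p = 0.829). Between OO and CO, the mothers' diet in obesogenic-fed sons, it was -0.48 (interval -0.98 to 0.01, limma adjusted p = 0.371), and -0.15 without that library (limma adjusted p = 0.671). The comparisons share the CO libraries, so the values are not independent of each other. In OO against OC the change of this arm was -0.17 and in OC against CC 0.08. With log2 depth as a covariate these were -0.37 (limma adjusted p = 0.487) and 0.54 (SE 0.179, limma adjusted p = 0.422). With that covariate CO against CC was at 0.44 (SE 0.143, limma adjusted p = 0.101) and OO against CO at -0.27 (limma adjusted p = 0.516). Depth was 7.47 to 13.3 M reads in CC and 16.9 to 22.2 M in OC. Between these groups, depth and diet cannot be told apart. CO replicate 3, which held the highest value of this arm, was the shallowest library.

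The other 5 members had log2 changes between -0.11 and 0.21 in CO against CC, and between -0.09 and 0.05 in OO against OC. Their changes lay between -0.12 and 0.07 in OC against CC, and between -0.27 and 0.22 in OO against CO. In the last of these, miR-152-3p was at 0.22 and miR-148b-3p at 0.15, where the median of all rows was 0.13. With TMM factors that median was -0.01 and miR-148b-3p was at -0.01. In the same comparison miR-148a-3p was at -0.08, and at -0.24 with TMM factors, -0.21 with median-of-ratios factors and -0.16 without CO replicate 3. Without that library miR-148b-5p moved from -0.27 to -0.16 in OO against CO and from 0.21 to 0.09 in CO against CC. miR-152-3p moved from 0.22 to 0.13 in OO against CO and from -0.11 to -0.02 in CO against CC. By limma with Benjamini-Hochberg adjustment 0 of 6 members passed in each of these comparisons. The share of all rows that passed was 0.777% in CO against CC, 0.518% in OO against OC, 0% in OC against CC and 0% in OO against CO. At the deposited scaling, with all 12 libraries and no covariate, there were also 0 members at an unadjusted limma p under 0.05. The shares of all rows at that threshold were 16.3%, 7.25%, 1.04% and 12.2%. The groups overlapped for all 6 members in each comparison, whereas they separated for 22.0%, 15.5%, 8.81% and 19.2% of all rows. The intervals lay within a log2 change of 1 for all 6 members in each, against 80.3%, 87.3%, 89.6% and 80.8% of all rows.

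An interaction term tested whether the difference between the sons' diets depended on the mother's diet. miR-148a-3p had a difference of log2 changes of 0.04 at the deposited scaling (interval -0.24 to 0.33), which turned to -0.11 with TMM factors. miR-148a-5p had -0.57 (interval -1.27 to 0.13, limma adjusted p = 0.773), and -0.23 without CO replicate 3. With log2 depth as a covariate the value of miR-148a-5p was -0.81 (limma adjusted p = 0.169). No member passed by limma (0 of 6, against 0% of all rows), and 0 had an unadjusted p under 0.05, against 3.89% of all rows. The precision was lower here. For 5 of 6 members the interval lay inside 1 log2 unit in either direction, as it did for 63.5% of all rows. Among the members it lay inside 0.5 for miR-148a-3p alone, and the share of all rows at that bound was not counted.

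The hairpins differed widely in how their reads were divided between the arms. The 3p arm was the major arm of all 3. The 5p arm held 0.667 ± 0.224% of the reads of both arms for miR-148a, 3.08 ± 0.604% for miR-148b and 21.5 ± 2.46% for miR-152 (SD, n = 12). Of the 99 hairpins of the table with both arms listed, the median share of the minor arm was 7.70%. From mean levels, 19 hairpins had a smaller minor-arm share than miR-148a, 30 a smaller one than miR-148b and 68 a smaller one than miR-152.

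In CO replicate 3 the 5p share was the highest of all libraries for each of the 3 hairpins. For miR-148a it was 0.552%, 0.609% and 0.589% in CC, 0.561%, 0.583% and 1.36% in CO, 0.637%, 0.673% and 0.707% in OC, and 0.593%, 0.524% and 0.619% in OO. Here all 3 OC libraries lay above the CC and the OO libraries. For miR-148b the share was 2.88%, 2.91% and 3.24% in CC, 2.97%, 3.45% and 4.86% in CO, 2.71%, 2.81% and 2.86% in OC, and 2.82%, 2.76% and 2.69% in OO. For miR-152 it was 22.4%, 19.95% and 21.8% in CC, 21.6%, 19.7% and 28.1% in CO, 19.7%, 22.7% and 22.4% in OC, and 19.7%, 18.7% and 21.5% in OO. Apart from CO replicate 3, all libraries lay between 0.524% and 0.707% for miR-148a, between 2.69% and 3.45% for miR-148b and between 18.7% and 22.7% for miR-152.

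The 5p share of miR-148b separated the sons by maternal diet. All 6 libraries of obesogenic mothers, at 2.69% to 2.86%, lay below all 6 of control mothers, at 2.88% to 4.86%. The same order within control-fed and within obesogenic-fed sons follows from this and is no separate observation. miR-148b was the only 1 of the 99 hairpins (1.01%) whose arm ratio separated in this way between maternal diets. The gap was narrow: it lay between OC replicate 3 (2.86%) and CC replicate 1 (2.88%), where the counting error of miR-148b-5p alone was 4.24% and 4.89% of its level. The separation was noticed after the values were seen, so no test of it is given beyond that of the arm ratio below, which it did not pass. For miR-148a, the OC libraries separated from those of CC and OO. The shares of all hairpins that separated were 11.1% in OC against CC, 7.07% in OO against OC, 13.1% in OO against CO and 12.1% in CO against CC. With 3 libraries against 3 an exact two-sided p cannot be below 0.10.

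**Figure D3:**
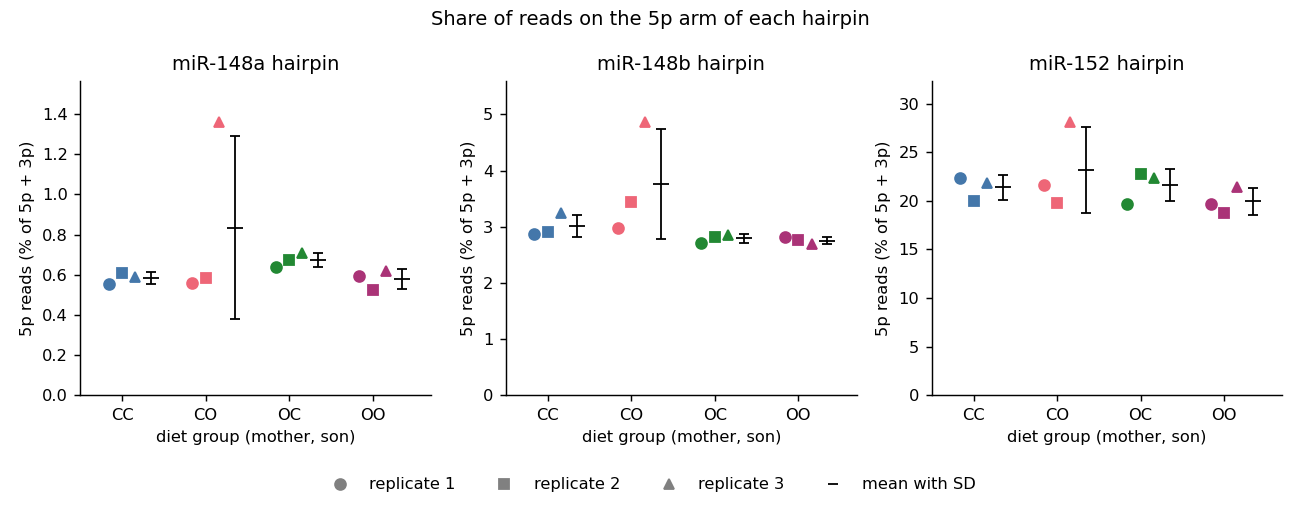
Share of the 5p arm in the reads of both arms (vertical axis, %, starting at 0) for each hairpin, in each library by diet group, with the mean and SD. CO replicate 3 is the highest library for all 3 hairpins, at 1.36%, 4.86% and 28.1%.

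The shift of CO replicate 3 was not one of all hairpins in the same direction. Measured as the log2 ratio of the minor to the major arm against the median of the other 11 libraries, it stood at 1.21 for miR-148a, 0.78 for miR-148b and 0.52 for miR-152. These were ranks 3, 9 and 16 among the 99 hairpins in that library, where the median hairpin stood at -0.04. CO replicate 3 held the highest minor-arm ratio of the 12 libraries for 27 hairpins and the lowest for 30. Each other library held the highest for 3 to 14 hairpins and the lowest for 1 to 12. This library was also the shallowest, and the part of depth, RNA quality or cell makeup in these ratios was not tested.

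**Figure D4:**
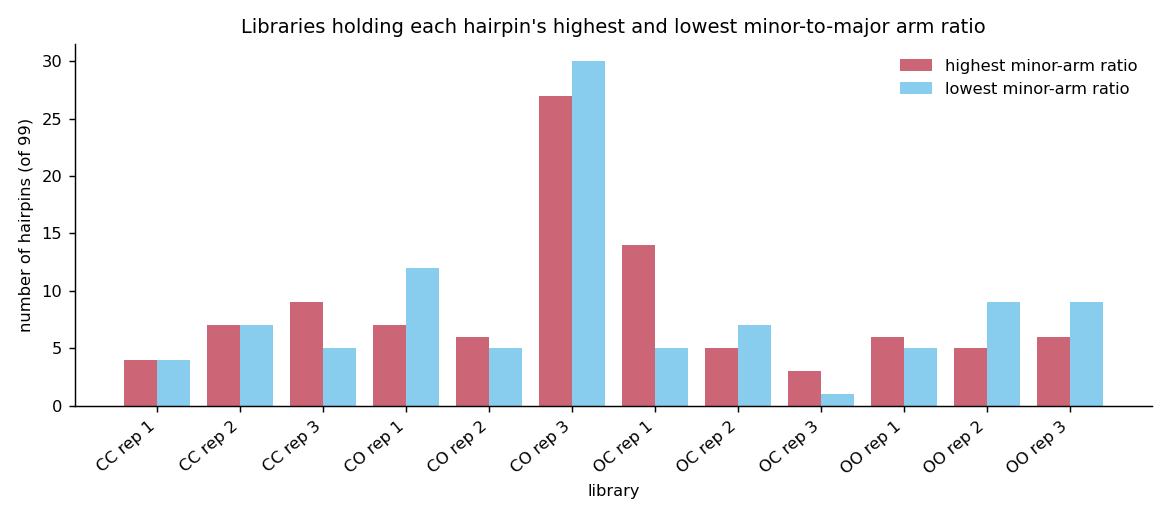
Number of hairpins, of 99 with both arms listed (vertical axis), for which each of the 12 libraries held the highest or the lowest ratio of minor to major arm. CO replicate 3 held the highest for 27 and the lowest for 30, more than any other library on both counts.

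For arm use, diet was tested on the log2 ratio of the 5p to the 3p arm, with 1 CPM added to each arm. Apart from that addition, the ratio does not depend on the scaling of a library. No hairpin of the family passed. For the sons' diet the log2 change was 0.09 for miR-148a, 0.14 for miR-148b and -0.00 for miR-152, and that of miR-148a was -0.12 without CO replicate 3. For maternal diet it was -0.10, -0.27 and -0.12. The maternal value of miR-148b had an SE of 0.118, an unadjusted limma p of 0.042 and an adjusted limma p of 0.697. Without CO replicate 3 it was -0.16 (SE 0.077, limma adjusted p = 0.624). The maternal value of miR-148a was 0.11 without that library. For the interaction the values were -0.61, -0.32 and -0.27, and without it -0.19, -0.11 and -0.08. By limma with Benjamini-Hochberg adjustment over the 99 hairpins, 0 of 3 family hairpins passed in each of the 3 comparisons, and 0% of all hairpins did. At an unadjusted p under 0.05 there were by limma 0, 1 and 0 family hairpins for the sons' diet, maternal diet and interaction, against 6.06%, 6.06% and 3.03% of all hairpins.

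The balance between the 3p arms, which share a seed, was compared as ratios within each library. The ratio of miR-148a-3p to miR-148b-3p was 81.7, 82.9 and 81.1 in CC, 87.6, 87.3 and 88.2 in CO, 83.6, 74.0 and 64.5 in OC, and 91.6, 79.9 and 57.2 in OO. It was 84.8 ± 3.25 in sons of control mothers and 75.1 ± 12.7 in sons of obesogenic mothers (SD, n = 6 each), and the difference in spread was not tested. The CO libraries all lay above the CC libraries, which was seen after the values were known and was not tested. For scale, 22.0% of all single rows and the arm ratios of 12.1% of the 99 hairpins separated in that comparison. Of these, only the arm ratios are free of a library's scaling, as the ratios here are. The ratio of miR-148a-3p to miR-152-3p was 463 ± 49.8 with control and 395 ± 67.7 with obesogenic mothers, and that of miR-148b-3p to miR-152-3p was 5.46 ± 0.495 and 5.29 ± 0.676 (SD, n = 6 each).

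None of the 6 tests of these ratios passed. With obesogenic minus control mothers the log2 difference was -0.19 for miR-148a-3p over miR-148b-3p (exact permutation p = 0.108, adjusted p = 0.325) and -0.24 for miR-148a-3p over miR-152-3p (exact permutation p = 0.0671, adjusted p = 0.325). For miR-148b-3p over miR-152-3p it was -0.05 (exact permutation p = 0.61, adjusted p = 0.844). For the sons' diet the log2 differences were 0.06, 0.06 and -0.00, with exact permutation p between 0.597 and 0.998. The tests were two-sided over all 924 splits of 6 against 6 libraries, which can give a p as small as 0.00216. Without OO replicate 1, both maternal ratios of miR-148a-3p came closest to the threshold, at a lowest exact permutation adjusted p of 0.0649.

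**Figure D5:**
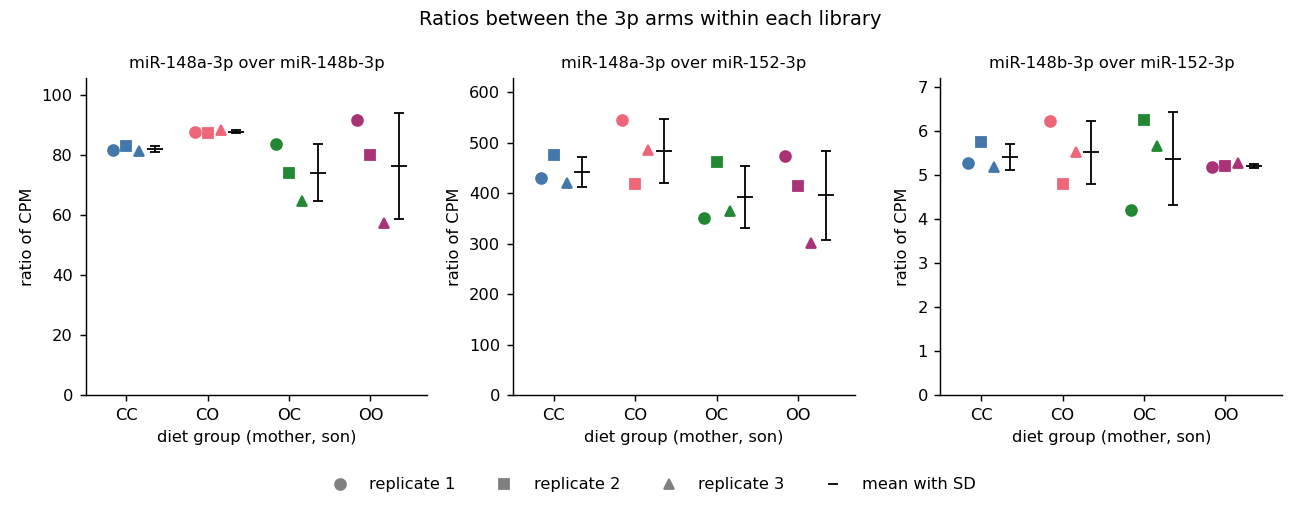
Ratio of CPM between the 3p arms (vertical axis, linear and starting at 0) in each library by diet group, with the mean and SD. For miR-148a-3p over miR-148b-3p the CC and CO libraries sit between 81.1 and 88.2, and the OO libraries between 57.2 and 91.6.

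Across the 12 libraries, the 3p arms did not follow each other as a set. As descriptions over libraries that share the table's scaling, Pearson's r of log2(CPM + 1) was -0.00 between miR-148a-3p and miR-148b-3p and -0.04 between miR-148a-3p and miR-152-3p. It was 0.66 between miR-148b-3p and miR-152-3p, and 0.56 without CO replicate 3. Between the arms of 1 hairpin it was -0.20 for miR-148a, 0.22 for miR-148b and 0.55 for miR-152. Without CO replicate 3 these values were 0.36, 0.78 and 0.83.

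Of the 260 other rows with a mean of at least 10 CPM, those most like miR-148a-3p over the 12 libraries were miR-21a-3p (Pearson's r 0.81), miR-1948-5p (0.70) and miR-21a-5p (0.68). Most like miR-148b-3p were miR-1249-3p (0.91), miR-151-3p (0.84) and miR-107-3p (0.83). Most like miR-152-3p were miR-34a-5p (0.84), miR-676-5p (0.84) and miR-802-5p (0.83). They are the highest of many correlations over few libraries and describe these libraries only. Without CO replicate 3 the r values of these 9 miRNAs lay between 0.67 and 0.90. Spearman's rho over all 12 libraries was lower than r for miR-151-3p, at 0.55, and for miR-107-3p, at 0.66. For the others named it lay between 0.73 and 0.88. No miRNA was among the closest 3 of more than 1 of these 3p arms.

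Of 7 miRNAs known to target DNA methyltransferases or related enzymes, as miR-148 and miR-152 do, all 7 were measured. By limma 0 rose and 0 fell in any of the 7 comparisons. Only 0% to 0.777% of all rows passed in these comparisons, so the count says little about the list. Their median log2 change was -0.01 for the sons' diet and 0.10 for maternal diet, beside -0.02 and 0.08 for all rows. miR-101b-3p had a mean of 8931 CPM and a log2 change of 0.05 for the sons' diet, and miR-101a-3p 8424 CPM and -0.02. miR-29a-3p, whose family targets the de novo methyltransferases, had 4341 CPM and -0.24, and miR-29c-3p 725 CPM and -0.25 (limma adjusted p = 0.417 for both). In CO against CC these 2 were at -0.48 and -0.45, and in OO against OC at -0.0045 and -0.05. As hepatocyte references, miR-122-5p had a log2 change of -0.12 for each diet and miR-192-5p 0.12 for the sons' and -0.03 for the mothers' diet. None of these passed by limma.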

How the data were processed

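Per the labels' protocols, a miRNeasy kit yielded total liver RNA, which went into TruSeq small RNA libraries. The submitters' processing notes name Bowtie 1.2.3. The authors deposited 1 table of CPM for 386 miRNA rows; no source used here gives its genome build or its rule for reads with several matches. A further list is not reported here. Members and gene lists were chosen with earlier results of these data known. Named miRNAs were all family arms, any miRNA with their seeds, the 3 rows most like each 3p arm, the 4 most abundant of a list of DNA methyltransferase regulators, and miR-122-5p and miR-192-5p. Depth was read from the CPM value of 1 read: 100% of values were whole multiples of it, within 0.001 reads. limma 3.58.1 (R 4.3.3) was fitted to log2(CPM + 1) of all rows in 12 libraries with a mean-variance trend and 1 mean per group. A pseudocount of 1 understates changes of low miRNAs. Adjusted p under 0.05 passed, two-sided. Arm ratios were fitted likewise over 99 hairpins, without the trend. Ratios between 3p arms were compared by exact permutation. The fits were tested on simulated data. Replicate numbers follow accession order and pair nothing. No count model was run. Python 3.11.15, pandas 2.3.3, scipy 1.17.1 and matplotlib 3.10.9 were used.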

Additional observations from a re-analysis of the deposited data

Results flagged for a closer look

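Levels and 5p shares were examined in 36 sets of 6 values, each from libraries that share a diet of the mother or the son, and 10 values lay further from the other 5 than Dixon's 95% critical value allows. Chance gives about 1 in 20. Of these, 9 belonged to CO replicate 3, and most are the same values seen in 2 overlapping sets. miR-148a-5p stood at 1066 CPM there, against 429 to 558 CPM in the other obesogenic-fed sons and 482 to 558 CPM in the other sons of control mothers. The 5p share of miR-148a was 1.36%, against at most 0.619% and 0.609% in those sets. The 5p share of miR-148b was 4.86%, against at most 3.45% in both, and that of miR-152 was 28.1%, against at most 21.6% and 22.4%. miR-148b-3p stood at 876 CPM in the same library, against 1017 to 1092 CPM in the other sons of control mothers. The 10th value was miR-152-5p in CC replicate 2, at 45.0 CPM, against 55.2 to 58.0 CPM in the other control-fed sons, and it rested on 336 reads.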

How the results depend on the processing

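Under no alternative did a member, arm ratio or 3p ratio pass: 0 of 990 comparisons over 57 results, with adjusted p never below 0.101 for members (limma), 0.308 for arm ratios (limma) and 0.0649 for 3p ratios (exact permutation). The alternatives were pseudocounts of 0.25 and 5, TMM and median-of-ratios factors, log2 depth as a covariate, only rows with a mean of at least 10 CPM, only the 6 libraries compared, and leaving out each library. Signs turned for 31 results, none over 0.20 in size at the deposited scaling. The cause was not tested.

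With TMM factors the log2 change was 0.024 for miR-148b-3p, 0.024 for miR-152-3p and 0.020 for miR-152-5p for the sons' diet, -0.059 for miR-152-5p for maternal diet, 0.041 for miR-148b-3p and 0.018 for miR-152-3p in CO minus CC and -0.014 for miR-148b-5p in OO minus OC. It was -0.0065 for miR-148b-3p in OO minus CO and -0.11 for miR-148a-3p and -0.033 for miR-148b-3p in the interaction. With median-of-ratios factors it was -0.050 for miR-152-5p for maternal diet, -0.011 for miR-148b-3p and -0.031 for miR-148b-5p in OO minus OC and -0.081 for miR-148a-3p and -0.0050 for miR-148b-3p in the interaction. With log2 depth as a covariate it was 0.14 for miR-148a-5p for maternal diet, -0.085 for miR-148b-5p in OO minus OC, 0.14 for miR-148b-5p and -0.048 for miR-152-3p in OC minus CC and 0.038 for miR-152-5p in OO minus CO.

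On leaving out 1 library, the sign turned for 29 results. For the sons' diet the log2 change ranged from -0.0023 to 0.074 for miR-148a-3p, -0.050 to 0.22 for miR-148a-5p, -0.11 to 0.026 for miR-148b-3p, -0.11 to 0.024 for miR-152-3p and -0.14 to 0.031 for miR-152-5p. For maternal diet it ranged from -0.090 to 0.078 for miR-152-5p. In CO minus CC it ranged from -0.056 to 0.10 for miR-148a-3p, -0.16 to 2.24e-05 for miR-148b-3p and -0.10 to 0.15 for miR-152-5p. In OO minus OC it ranged from -0.015 to 0.12 for miR-148a-3p, -0.13 to 0.14 for miR-148b-3p, -0.13 to 0.10 for miR-148b-5p, -0.10 to 0.16 for miR-152-3p and -0.31 to 0.028 for miR-152-5p. In OC minus CC it ranged from -0.031 to 0.12 for miR-148b-3p, -0.14 to 0.034 for miR-148b-5p, -0.019 to 0.12 for miR-152-3p and -0.042 to 0.14 for miR-152-5p. In OO minus CO it ranged from -0.014 to 0.26 for miR-148b-3p and -0.26 to 0.081 for miR-152-5p. In the interaction it ranged from -0.041 to 0.11 for miR-148a-3p, -0.046 to 0.23 for miR-148b-3p and -0.33 to 0.0081 for miR-152-5p. The log2 arm ratio ranged from -0.12 to 0.20 for miR-148a and -0.10 to 0.065 for miR-152 for the sons' diet, and from -0.21 to 0.11 for miR-148a for maternal diet. The log2 ratio of 3p arms ranged from -0.0061 to 0.17 for miR-148a-3p over miR-152-3p and -0.070 to 0.045 for miR-148b-3p over miR-152-3p for the sons' diet, and from -0.10 to 0.014 for miR-148b-3p over miR-152-3p for maternal diet.

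The planned edgeR test on whole reads was not run. No paired analysis was possible because replicate numbers come from accession order. Depth limited miR-148b-5p most, at 232 reads in CC replicate 2.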

Other observations

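The miRNAs most like miR-148a-5p over the 12 libraries were looked at after its value in CO replicate 3 was seen. Pearson's r was 0.82 with miR-7a-5p, 0.79 with miR-181a-2-3p and 0.77 with let-7g-5p. Without CO replicate 3 these were -0.12, 0.15 and -0.37, so the likeness rested on that library. Spearman's rho over all 12 libraries was 0.03, 0.36 and -0.10.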
